A study of Mus musculus with 12 samples.

Results

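Genes of DNA replication and mitosis were read in mouse tongue at embryonic day 13.5, in 6 control and 6 mutant samples, each on 1 Affymetrix expression array. Control embryos had the genotype Myf5-Cre;Smad4flox/+ and mutants the genotype Myf5-Cre;Smad4flox/flox, all on the C57BL/6J background, so Cre and at least 1 floxed Smad4 allele were present in every sample. Cre made from Myf5, a gene of the muscle lineage, is meant to act in that lineage and to leave Smad4 in other cells of the organ. Where Cre acted was not measured here. The RNA came from tongue primordia, in which muscle cells lie among mesenchyme, epithelium, nerve and vessels. The 44 genes were taken as a named list, 22 of S phase and its entry and 22 of mitosis. Each was represented by its brightest probe set with a single gene symbol, by the mean over all 12 arrays. Of the 44, 43 were measured, among 18193 genes on the arrays. The 1 member not analysed here is Ccnb1, the gene of cyclin B1, which no probe set of the annotation used here names. Values are log2 RMA signals; a difference of 1 is a doubling.

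A dividing cell passes from G1, where cyclin E and the E2F factors start the programme, into S phase, where the MCM helicase is loaded at origins and opened by Cdc45 and GINS. Cyclin A, cyclin B and the kinase Cdk1 then carry it into mitosis, in which Aurora, Polo and checkpoint kinases guide the spindle. Transcripts of both phases are low in resting cells, and muscle progenitors leave the cycle for good when they differentiate into fibres. Many S phase promoters carry E2F sites, whereas mitotic promoters often carry CCAAT boxes, bound by NF-Y, and a CHR element.

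These elements could be read in the members' own promoters. The RefSeq table of mouse promoters (GRCm38.p6) held 36 of the 44 members, and the 250 bases before each annotated start were searched on both strands for CCAAT, for the CHR letters TTTGAA and for the E2F letters TTTCCCGC and TTTGGCGC. A gene with more than 1 listed start counted once, if any start matched; this applied to 3 members. CCAAT was found in 16 of 18 mitotic and 11 of 18 S phase members, 88.9% and 61.1%, beside 39.4% of the 14452 measured genes in the table and 37.5% of all 27025 genes in it. The E2F letters were found in 5 of 18 S phase members (27.8%) and in 0 of 18 mitotic ones, beside 2.30% of the measured genes and 1.51% of all genes in the table. TTTGAA was found in 6 mitotic and 4 S phase members, 33.3% and 22.2%, beside 14.1% of the measured genes and 18.3% of all genes in the table. None of the members' matches overlapped a match to another of these motifs. The shares describe letters in a window, and say nothing of which factor binds there.

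The promoters of 6 members are given with the motif letters in capitals, all written 5′ to 3′ on the gene's own strand. Nusap1 and Cenpe, and Cdc45 and Ccne1, are the mitotic and the S phase pairs with the smallest p in the genotype comparison. Cdk1 and Mcm6 were added for their motif content, after it was seen, and stand for no class. The windows are chr2:119618048-119618297 on the plus strand, chr3:135212313-135212562 on the plus strand, chr16:18811973-18812222 on the minus strand, chr7:38107491-38107740 on the minus strand, chr10:69352913-69353162 on the minus strand and chr1:128359706-128359955 on the minus strand, in the order in which the sequences follow.
Nusap1: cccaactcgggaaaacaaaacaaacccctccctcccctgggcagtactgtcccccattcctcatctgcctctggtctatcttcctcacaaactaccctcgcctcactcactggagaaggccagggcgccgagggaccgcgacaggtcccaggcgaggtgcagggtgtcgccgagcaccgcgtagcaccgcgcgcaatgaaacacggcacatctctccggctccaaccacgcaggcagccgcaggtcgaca
Cenpe: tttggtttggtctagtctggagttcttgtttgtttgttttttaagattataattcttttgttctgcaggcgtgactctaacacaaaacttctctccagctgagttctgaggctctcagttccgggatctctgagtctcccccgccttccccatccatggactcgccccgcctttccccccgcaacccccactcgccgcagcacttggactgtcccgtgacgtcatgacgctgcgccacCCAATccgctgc
Cdc45: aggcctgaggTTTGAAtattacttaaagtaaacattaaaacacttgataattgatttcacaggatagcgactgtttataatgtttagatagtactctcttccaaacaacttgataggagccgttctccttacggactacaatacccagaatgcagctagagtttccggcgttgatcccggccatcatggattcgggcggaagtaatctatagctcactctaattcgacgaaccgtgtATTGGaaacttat
Ccne1: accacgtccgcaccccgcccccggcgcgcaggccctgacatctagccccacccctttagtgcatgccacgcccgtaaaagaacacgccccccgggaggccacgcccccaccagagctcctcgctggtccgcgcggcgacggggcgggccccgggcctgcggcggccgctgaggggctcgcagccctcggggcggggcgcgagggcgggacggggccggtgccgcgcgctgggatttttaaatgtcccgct
Cdk1: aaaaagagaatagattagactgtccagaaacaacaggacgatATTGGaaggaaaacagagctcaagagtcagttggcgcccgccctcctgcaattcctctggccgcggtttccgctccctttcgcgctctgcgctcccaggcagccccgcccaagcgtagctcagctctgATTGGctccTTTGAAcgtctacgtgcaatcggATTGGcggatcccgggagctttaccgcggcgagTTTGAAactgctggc
Mcm6: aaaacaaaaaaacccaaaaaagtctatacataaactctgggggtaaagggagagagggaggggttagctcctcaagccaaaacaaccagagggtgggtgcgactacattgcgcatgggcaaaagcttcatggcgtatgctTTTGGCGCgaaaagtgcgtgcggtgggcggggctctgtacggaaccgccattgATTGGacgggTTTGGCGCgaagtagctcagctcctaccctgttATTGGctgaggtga
Cdk1 has 3 CCAAT matches (read as ATTGG on this strand) and 2 of TTTGAA, while Mcm6 has 2 matches to the E2F letters TTTGGCGC and 2 to CCAAT. Cenpe has 1 CCAAT and Cdc45 1 CCAAT and 1 TTTGAA. In the Nusap1 and Ccne1 windows none of the letters searched for was found.

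**Figure D1:**
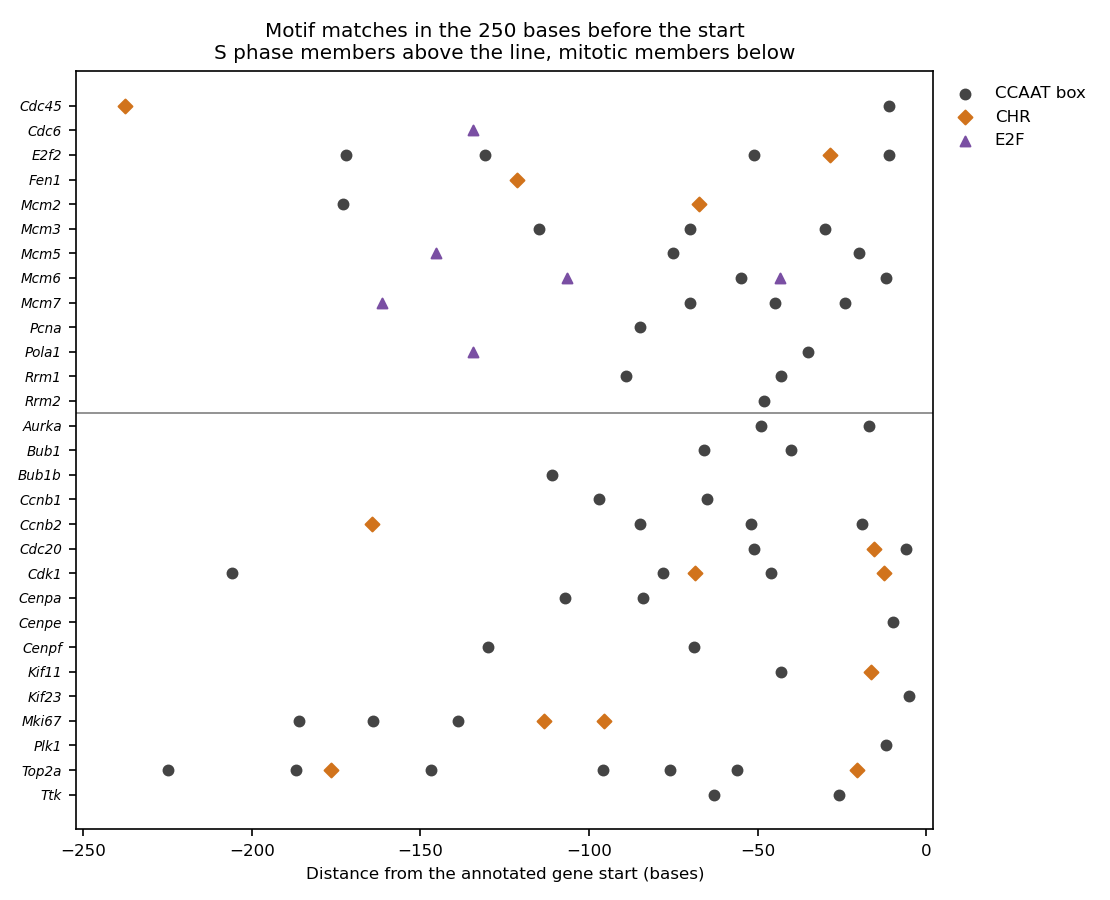
Motif matches in the 250 bases before the annotated start of each member with at least 1 match, by distance from the start in bases. Triangles (E2F letters) appear only among S phase members, in 5 genes; circles (CCAAT) appear in 16 mitotic members, Ccnb1 included, and 11 S phase members.

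Smad4, the targeted gene, read 12.16, 12.30 and 12.35 (lowest, median, highest) in controls and 11.58, 12.25 and 12.30 in mutants. It did not pass: the difference was −0.15 with limits of −0.37 and 0.08 (adjusted p = 0.427, limma). Only mutant 1 lay below the control range, and its value was the lowest on each of the 3 Smad4 probe sets. These probe sets do not check the labels. The sources used here do not say whether the probe sets lie in the deleted part, and cells without Cre keep the gene. Without mutant 1, 0 members passed in either direction (limma), the medians were 0.04 for S phase and 0.06 for mitosis, and Rb1 (−0.53), Cdkn1a (−0.56) and Cdkn2b (0.48), described last, still passed.

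Cell cycle transcripts were nearly level between the genotypes. None of the 43 measured members passed the test (limma, adjusted p under 0.05 over all genes), while 11.1% of all genes did (6.3% as higher and 4.8% as lower). At an unadjusted p under 0.05, 5 members were higher and 2 lower in mutants, 16.3% of the members against 24.8% of all genes (14.7% higher, 10.1% lower). An unequal-variance test also passed 0 members after adjustment, where it passed 7.66% of all genes, and 7 members before it. Control and mutant arrays overlapped for every measured member, whereas 6.3% of all genes had groups that did not overlap.

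For all 43 members the 95% interval of the difference lay between a fall of 20% and a rise of 25%, which held for 75.4% of all genes and for 73.3% of those at or above the median signal of all probe sets. These are intervals of each gene's brightest probe set: over all 102 probe sets that name a measured member, 83 intervals lay within the same bounds. The same share over all probe sets is not given here. Of 34 members with several probe sets, 19 had differences of both signs. The highest upper limit was 0.32 on the log2 scale, for the spindle kinase Aurka and the motor Kif20a. The lowest was −0.30, for the S phase factor E2f2, a level 1.23-fold lower. Under every alternative tried all 43 intervals stayed within 1.5-fold (93.7% of all genes in the main setting), but the number within the narrower bounds went down to 33 without mutants 1 and 2 and to 34 without control 1. The median difference was 0.05 over the members and 0.01 over all genes. It was above 0 for 34 members and below 0 for 9, 79.1% above against 52.9% of all genes. Members moved together from array to array, as the array means show, so these signs are not separate observations.

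**Figure D2:**
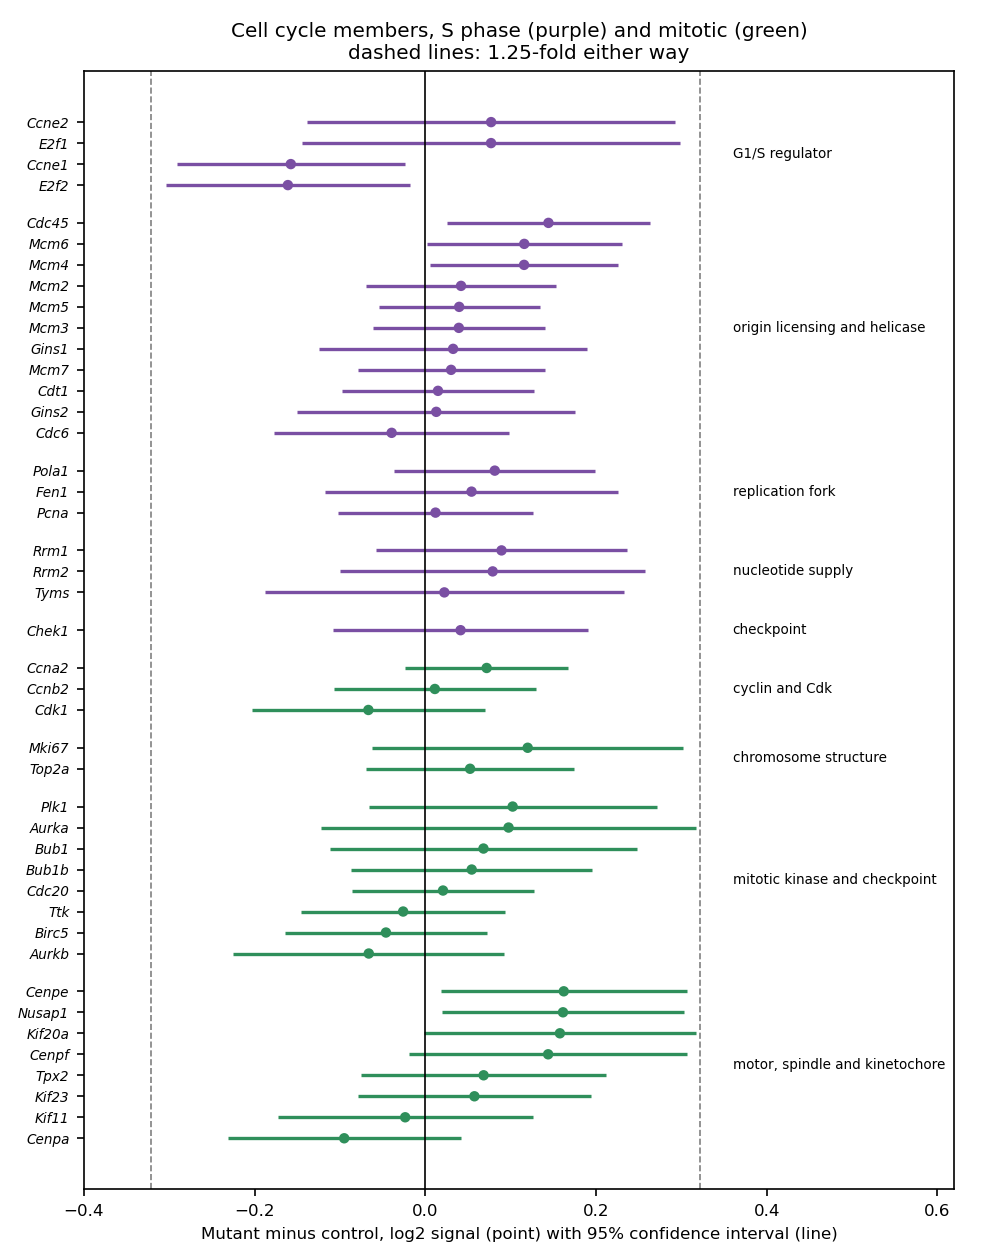
Mutant minus control difference in log2 signal for the 43 measured members (point) with limma's 95% confidence interval (line), 6 arrays in each group, grouped by role. All lines stay between the dashed lines at a fall of 20% and a rise of 25%, and Ccne1 and E2f2 are the 2 members whose line lies wholly below 0.

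Among the genes that start S phase, the points lay on both sides of 0. Ccne1, cyclin E1, which with Cdk2 drives entry into S phase, read 11.23, 11.36 and 11.50 (lowest, median, highest) in controls and 11.08, 11.19 and 11.40 in mutants. Mutant 6 alone reached into the control range, and the other 5 arrays lay under it. The difference was −0.16 ± 0.06 (SE; adjusted p = 0.129, limma). Its other probe set gave −0.23 (adjusted p = 0.0160 over all probe sets), so Ccne1 passed with the mean of its probe sets, at −0.19 (adjusted p = 0.0205). It also passed without mutant 6, at −0.20 (adjusted p = 0.0381).

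E2f2, a transcription activator of S phase genes, differed by as much as Ccne1. It read 8.99, 9.14 and 9.25 in controls and 8.82, 8.94 and 9.15 in mutants, where 4 of 6 arrays lay under the control range. The difference was −0.16 ± 0.07 (SE; adjusted p = 0.148, limma), and its dimmer probe set gave −0.27 (0.0414 over all probe sets). With the mean of both probe sets E2f2 passed, at −0.22 (adjusted p = 0.0354). These were the 2 probe sets that passed of the 102 that name a measured member. The share of all probe sets that passed is not given here.

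On their brightest probe sets the sister genes had differences above 0. Ccne2, cyclin E2, read 9.38, 9.79 and 9.99 in controls and 9.50, 9.82 and 10.02 in mutants, a difference of 0.08 with limits of −0.14 and 0.29. E2f1 ranged from 8.34 to 8.97 in controls and from 8.72 to 9.16 in mutants, with the same difference of 0.08 and limits of −0.14 and 0.30. Both genes had groups that overlapped almost entirely. Of the other E2f1 probe sets, 1 gave 0.07, and the dimmest, at 5.33, gave −0.17 with limits of −0.33 and −0.01. The mean of the E2f1 probe sets gave −0.0081. The difference between the members of these pairs was not tested.

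Origin licensing and helicase genes held close to the control level, and 10 of the 11 points lay above 0. Cdc45, which joins MCM and GINS in the active helicase, read 8.21, 8.39 and 8.47 in controls and 8.42, 8.51 and 8.63 in mutants. Mutants exceeded the whole control range on 4 of 6 arrays, the most of any member. Cdc45 differed by 0.14 ± 0.06 (SE; adjusted p = 0.118, limma). A second, dimmer Cdc45 probe set gave −0.12. At the other end of the group, the helicase loader Cdc6 read 9.44, 9.56 and 9.68 in controls and 9.38, 9.48 and 9.71 in mutants, a difference of −0.04.

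The 6 MCM genes, whose proteins form 1 ring, differed by 0.03 to 0.12. Mcm4 (0.12, unadjusted p = 0.0401, limma fit over all genes, adjusted p = 0.177) went from a control range of 12.31 to 12.58 to a mutant range of 12.49 to 12.60. Mcm6 (0.12, adjusted p = 0.194) went from 11.80 to 12.09 in controls to 12.02 to 12.19 in mutants. In both genes the lowest mutant array stood above the control median, but the highest control, control 1, lay inside the mutant range. Mcm2 read 11.46, 11.55 and 11.68 in controls and 11.54, 11.57 and 11.69 in mutants, with limits of −0.07 and 0.15 on the difference. Mcm7 (0.03), Mcm3 and Mcm5 (each 0.04) were as level on their brightest probe sets. The dimmer Mcm5 probe sets gave 0.10 and 0.26. The latter had limits of 0.04 and 0.47 (adjusted p = 0.172 over all probe sets, limma) and was the highest difference of any member probe set. The loader Cdt1 (0.01, limits −0.10 and 0.13) and the GINS subunits Gins1 (0.03) and Gins2 (0.01) lay near 0 as well.

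At the fork, Pcna, the sliding clamp of DNA polymerases, read 13.46, 13.55 and 13.70 in controls and 13.51, 13.59 and 13.63 in mutants. The mutant arrays fell inside the control range, and the limits of the difference were −0.10 and 0.13. Pola1, the catalytic subunit of the priming polymerase, read 9.79, 9.91 and 10.08 in controls and 9.92, 10.02 and 10.05 in mutants, a difference of 0.08. The flap nuclease Fen1 differed by 0.05.

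Genes that supply nucleotides were level too on their brightest probe sets. Rrm1, the large subunit of ribonucleotide reductase, read 11.95, 12.10 and 12.32 in controls and 12.07, 12.21 and 12.39 in mutants (difference 0.09, limits −0.06 and 0.24). Its partner Rrm2 differed by 0.08, and the dimmer Rrm2 probe sets gave 0.12 and 0.22, the latter with limits of −0.03 and 0.46. Tyms, thymidylate synthase, read 5.87, 6.25 and 6.49 in controls and 6.10, 6.22 and 6.46 in mutants, a difference of 0.02. Its probe set was near the median of all probe sets (6.13), where RMA compresses differences. The checkpoint kinase Chek1, which guards stalled forks, read 10.04, 10.29 and 10.46 in controls and 10.19, 10.33 and 10.42 in mutants, with limits of −0.11 and 0.19. Of its 4 dimmer probe sets, 1 gave 0.25 with limits of 0.10 and 0.40 (adjusted p = 0.0560 over all probe sets, limma), above the limits of the brightest, and another gave 0.16 (adjusted p = 0.162).

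The cyclins and kinase that bring cells into mitosis showed the same. Ccna2, cyclin A2, read 11.9999, 12.07 and 12.16 in controls and 12.04, 12.14 and 12.22 in mutants, a difference of 0.07 with limits of −0.02 and 0.17. Cdk1 read 11.12, 11.28 and 11.40 in controls and 11.03, 11.25 and 11.33 in mutants (−0.07, limits −0.20 and 0.07). Ccnb2, cyclin B2, differed by 0.01.

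The common proliferation marker Mki67, which coats mitotic chromosomes, read 11.87, 12.10 and 12.30 in controls and 11.98, 12.24 and 12.37 in mutants. The groups overlapped on all but 1 mutant array, and the difference was 0.12 ± 0.08 (SE; adjusted p = 0.429, limma). Top2a, the topoisomerase that untangles sister chromatids, read 12.35, 12.47 and 12.64 in controls and 12.39, 12.54 and 12.59 in mutants, a difference of 0.05 with limits of −0.07 and 0.17. No mutant array of Top2a lay outside the control range.

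Of the 8 mitotic kinases and checkpoint genes, 5 points lay above 0 and 3 below. Plk1, the Polo kinase, was at the upper end, with 10.29, 10.39 and 10.71 in controls and 10.35, 10.55 and 10.77 in mutants (0.10, limits −0.07 and 0.27). Aurkb, the Aurora kinase that corrects chromosome attachment, was at the lower end, with 9.46, 9.82 and 9.89 in controls and 9.54, 9.73 and 9.78 in mutants (−0.07, limits −0.22 and 0.09). Its partner Birc5, survivin, differed by −0.05 and the checkpoint kinase Ttk by −0.03. Aurka (0.10), the checkpoint kinases Bub1 (0.07) and Bub1b (0.05) and Cdc20 (0.02), which activates the ligase that ends mitosis, lay on the other side.

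Spindle and kinetochore genes had the largest positive differences of the mitotic class, and none passed. Cenpe, a kinetochore motor that aligns chromosomes, read 9.58, 9.72 and 9.94 in controls and 9.74, 9.92 and 9.97 in mutants. It differed by 0.16 ± 0.07 (SE; adjusted p = 0.147, limma). Its dimmer probe set gave −0.18, and the mean of both gave −0.01. Nusap1, which binds spindle microtubules, read 11.08, 11.16 and 11.47 in controls and 11.25, 11.35 and 11.45 in mutants (0.16, adjusted p = 0.143). Control 1 alone held the control range of Nusap1 above the mutants, and without it the difference was 0.22 and passed (adjusted p = 0.0145).

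The motor Kif20a (0.16) and the kinetochore protein Cenpf (0.14) lay beside them, and the spindle factor Tpx2 (0.07) and the midzone motor Kif23 (0.06) nearer to 0. Of the dimmer Tpx2 probe sets, 1 gave 0.20 (adjusted p = 0.0561 over all probe sets, limma) and the others −0.06 and −0.13. The dimmer Cenpf probe sets gave 0.18 and −0.24, the latter with limits of −0.46 and −0.02. The mean of the Cenpf probe sets gave 0.03. Cenpa, the centromeric histone, was lowest of the class, with 11.67, 11.74 and 11.98 in controls and 11.50, 11.69 and 11.83 in mutants (−0.10, limits −0.23 and 0.04). On 3 of 6 mutant arrays Cenpa lay under the control range. The spindle motor Kif11 differed by −0.02.

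**Figure D3:**
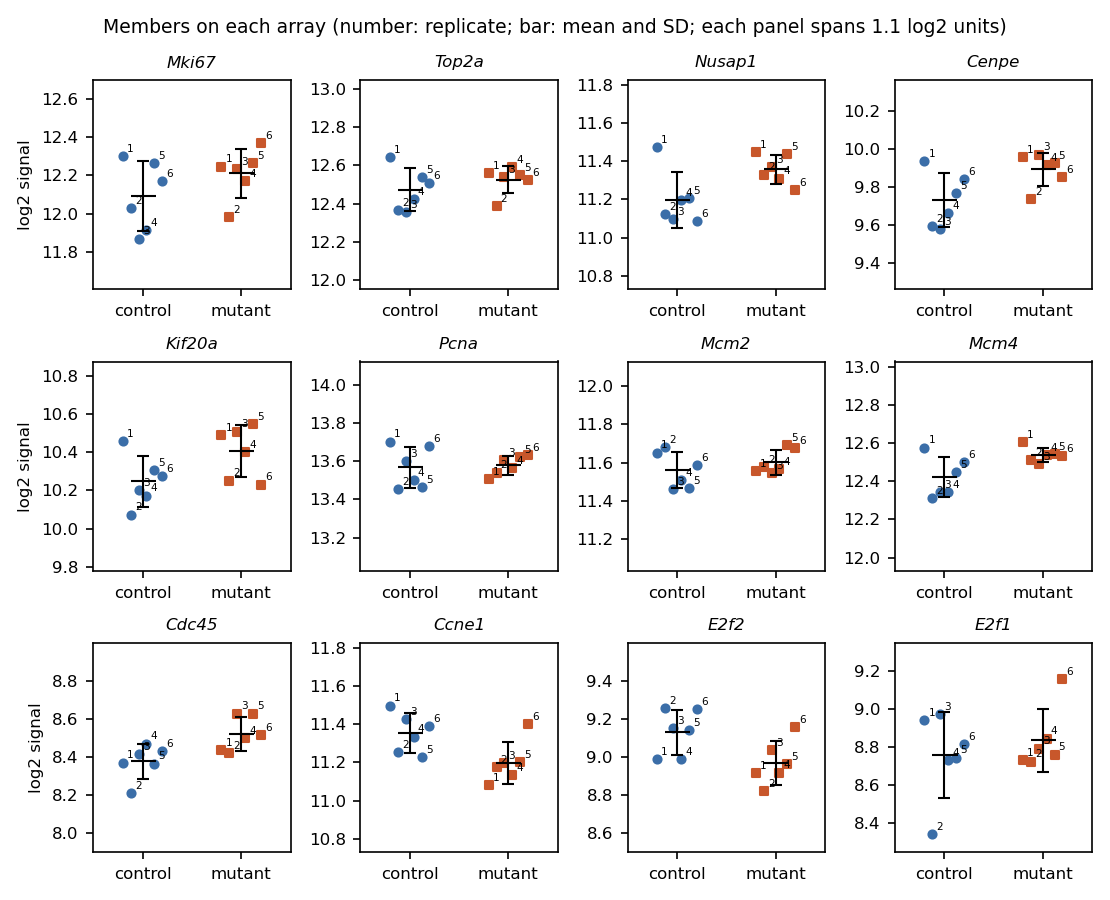
Log2 signal of 12 members on each of 6 control (circles) and 6 mutant (squares) arrays, numbered by replicate, with mean and SD. Control 1 is at or near the top of the controls in most panels, mutant 2 is the lowest mutant for Mki67, Top2a and Cenpe, and the groups overlap in every panel.

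S phase and mitotic members were then set against each other, and no shift of one class relative to the other was detected. The median difference was 0.04 over the 22 S phase members and 0.06 over the 21 mitotic ones. With the mean of all probe sets it was 0.04 for S phase and 0.02 for mitosis, so the order of the classes turned. As a mean over members on each array, relative to the control mean, S phase ranged from −0.08 to 0.12 in controls and from −0.06 to 0.11 in mutants. The mitotic mean ranged from −0.12 to 0.19 in controls and from −0.10 to 0.11 in mutants. On no mutant array did either mean leave the control range. The shift between genotypes, as the median of all mutant minus control differences with exact rank-based limits of 95.9% confidence, was 0.04 (−0.07 to 0.13) for S phase and 0.06 (−0.10 to 0.17) for mitosis. In fold terms the limits were 0.956 and 1.09 for S phase and 0.931 and 1.13 for mitosis. S phase minus mitosis shifted by −0.01 (−0.08 to 0.05). With S phase narrowed to its 16 Mcm, Pcna, Rrm, Tyms, Gins, E2f and cyclin E genes, this was −0.02 (−0.10 to 0.06).

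Both classes followed the same arrays. Control 1 gave the highest control value for 32 of 43 members, and controls 2 and 3 the lowest for 21 and 15. Mutant 2 gave the lowest mutant value for 30 of 43 members. The mitotic mean was 0.19 on control 1 and −0.12 on control 2, a wider span than the shift between genotypes. On mutant 2 it was −0.10, while the other mutants lay between 0.05 and 0.11. Over the 12 arrays the S phase and mitotic means had a Pearson r of 0.911 (Spearman rho 0.888), and 0.917 over 10 arrays without control 1 and mutant 6; the 2 means share arrays and normalisation. Within groups, a mitotic member followed the rest of its class with a median r of 0.79, from 0.51 to 0.93, and an S phase member with a median of 0.69. The loosest were Ccne2 (−0.07), Chek1 (0.07), E2f2 (0.17) and Tyms (0.18). Without control 1 the medians were 0.07 for S phase and 0.09 for mitosis, and without control 2 they were 0.03 for both.

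Markers of cell types did move between the same arrays. Skeletal muscle markers passed as lower for 11 of 12 genes, with a list mean of −0.30 to 0.17 in controls and −0.91 to −0.45 in mutants. Muscle progenitor markers passed as lower for 4 of 6 genes, and their mean was −1.14 to −0.49 in mutants. Pax3 of this list went the other way (0.25) and did not pass. Neuron markers passed as higher for 6 of 7 genes (list mean 0.36 to 1.38 in mutants) and cranial mesenchyme markers for 8 of 8 (0.25 to 0.62). All 7 neuron differences were above 0. Of the other lists, cartilage passed as higher for 4 of 7, oral epithelium for 4 of 8 and macrophages for 1 of 6. Differences were above 0 for 5 of 7, 8 of 8 and 6 of 6 of these genes. The unequal-variance test passed fewer, with 9 of 12 skeletal muscle, 3 of 6 progenitor and 6 of 8 mesenchyme genes. It passed 2 of 8 epithelial and 0 of 6 macrophage genes, but the same 6 of 7 neuron and 4 of 7 cartilage counts, beside 7.66% of all genes. Of 3 measured Schwann cell genes, Erbb3 passed as lower. With limma or the unequal-variance test, 0 of 6 endothelial and 0 of 5 erythroid genes passed (2 and 1 at limma's unadjusted p under 0.05). Control 1, the array with the highest cell cycle means, was also the control with the lowest muscle mean (−0.30). The mutants did not show this order. Mutant 1 had the lowest muscle mean (−0.91), with an S phase mean of 0.02 and a mitotic mean of 0.05. Mutant 5 had the highest muscle mean of the mutants (−0.45) and their highest mitotic mean (0.11). In whole tongue RNA, fewer cells of a type and less RNA per cell cannot be told apart, and a level in the whole organ does not give the level in the muscle lineage. The part of cell composition in the members' values was not tested.

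**Figure D4:**
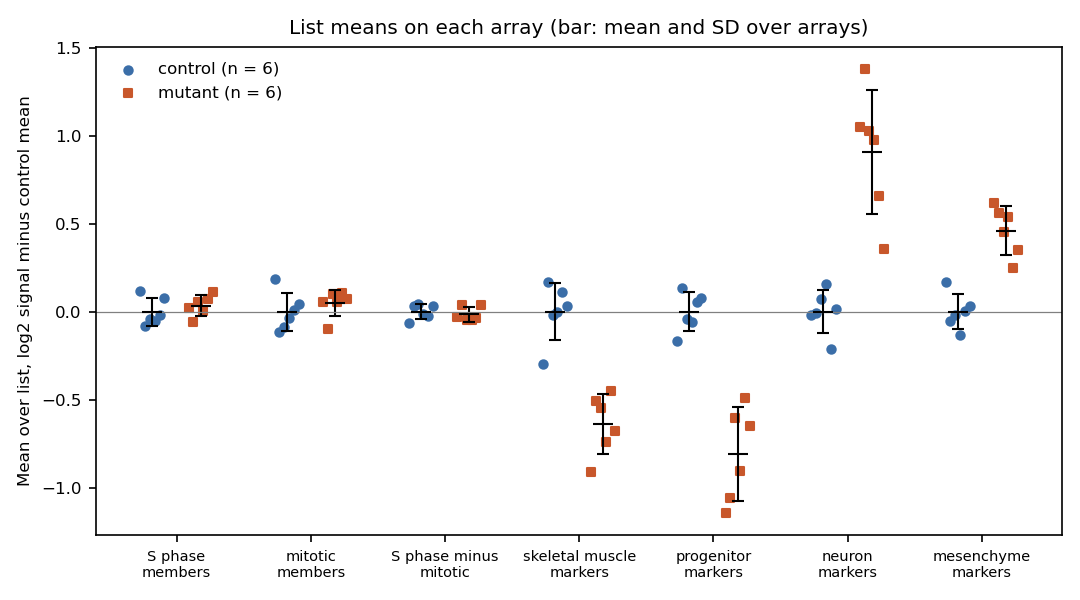
Mean of each list on each array, as log2 signal minus the control mean, for 6 control (circles) and 6 mutant (squares) arrays, with mean and SD over arrays. The S phase and mitotic means of mutants stay within the control range, between −0.10 and 0.11, on the same scale on which muscle markers reach −0.91 and neuron markers 1.38.

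Further cell cycle genes outside the members were read from the same fit, in lists of 47, 50, 22 and 15 measured genes. Of all these genes 6 passed, where 11.1% of all genes on the arrays did: Wdhd1, Rb1 and 4 inhibitors of the cycle. Of 47 measured other replication genes, 1 passed as higher and 0 as lower, beside 6.3% and 4.8% of all genes, and the median was 0.04. That gene was Wdhd1, a fork protein, which read 9.24 to 9.56 in controls and 9.52 to 9.69 in mutants (0.20, adjusted p = 0.0497, limma). It lost its call in 11 of 12 cases when 1 array was left out, with adjusted p up to 0.103. Of 50 other mitotic genes none passed (limma or the unequal-variance test; median 0.02; 2 and 4 at an unadjusted p under 0.05), and the smallest p was that of the phosphatase Cdc25c (0.16, adjusted p = 0.132, limma).

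Of 22 G1 and restriction point genes 1 passed, as lower, beside 4.8% of all genes, and the median was −0.02. Rb1, the retinoblastoma protein that holds E2F in check and supports lasting exit of muscle cells from the cycle, read 10.50, 10.71 and 10.995 in controls and 9.66, 10.12 and 10.32 in mutants. Every mutant array was below every control. The fall was of 0.62 on the log2 scale, 1.53-fold (SE 0.11, adjusted p = 0.00317, limma). A second Rb1 probe set, dim at 4.22, gave 0.01, and the mean of both gave −0.30 (adjusted p = 0.0222).

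Of 15 measured cell cycle inhibitors 3 passed as lower and 1 as higher, beside 4.8% and 6.3% of all genes. Their median difference was −0.07, with 9 below 0 and 6 above. Cdkn1a, the inhibitor p21 that differentiating myoblasts induce, read 12.15, 12.24 and 12.36 in controls and 11.41, 11.69 and 11.81 in mutants, with the groups wholly apart. It fell by 0.60 (1.52-fold, adjusted p = 0.000338, limma), and its other probe set fell by 0.68. Cdkn2b, the inhibitor p15 of the D-type cyclin kinases, rose from 6.65 to 7.04 in controls to 7.10 to 7.82 in mutants, again with no overlap (0.56, 1.48-fold, adjusted p = 0.00703).

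The other inhibitors that passed as lower were less secure. Btg2, an antiproliferative factor, fell by 0.46 (adjusted p = 0.0152, limma), with 9.21 to 9.69 in controls and 8.68 to 9.41 in mutants, but its second probe set gave −0.08. Gadd45b, a stress-response gene, fell by 0.35 (adjusted p = 0.0158), and its highest mutant array (8.81) lay just under its lowest control (8.82). Without control 3, mutant 4 and mutant 6, Btg2 differed by −0.35 (adjusted p = 0.116) and Gadd45b by −0.22 (0.113). Btg2 also missed the threshold without mutants 1 and 2 and in the unequal-variance test. Muscle markers fell on the same mutant arrays as Rb1 and Cdkn1a; their part in these falls was not tested.

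**Figure D5:**
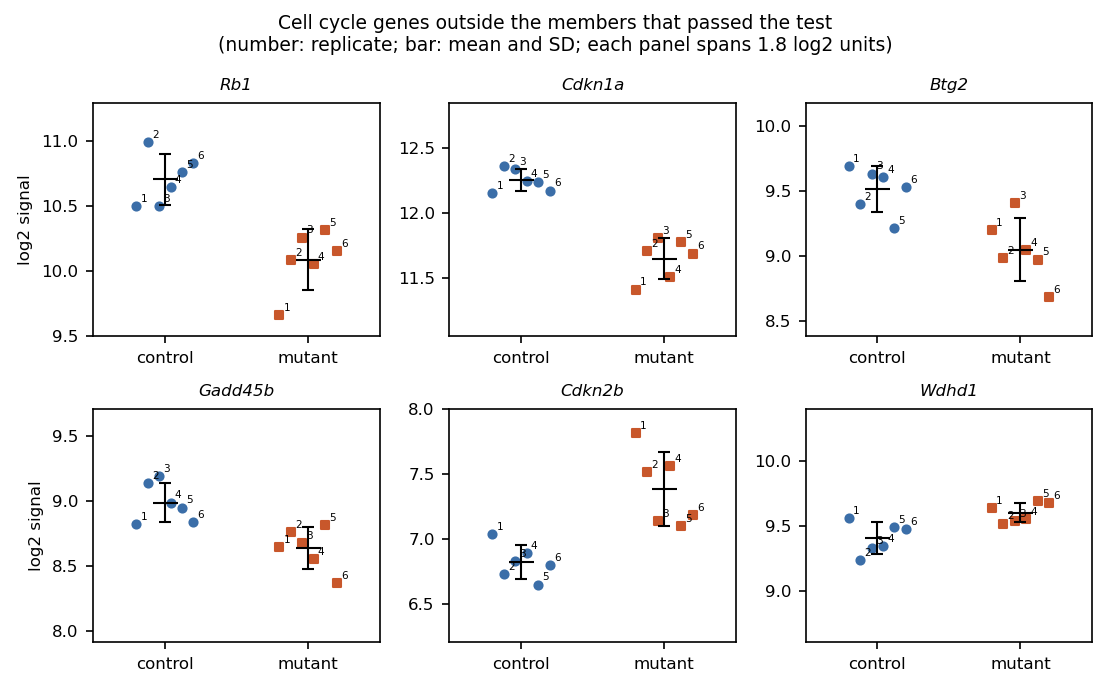
Log2 signal of the 6 cell cycle genes outside the member list that passed the test, on 6 control (circles) and 6 mutant (squares) arrays numbered by replicate, with mean and SD. Rb1, Cdkn1a and Gadd45b lie below every control on 6 of 6 mutant arrays and Cdkn2b above, while Btg2 and Wdhd1 overlap.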

How the data were processed

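The authors deposited log2 signals per probe set. Their processing notes name RMA, without software or version, and base 2 was taken from the range (2.57 to 15.09). RMA gives arrays nearly one distribution, which hides any change common to most genes; array number limits the precision. Symbols came from GEO's platform annotation: 34945 probe sets had 1, 932 several and 9160 none, and 34741 were checked against RefSeq names of GRCm38.p6. The comparison used lmFit and eBayes of limma 3.58.1 (R 4.3.3), with genotype as the only term, 2-sided, and Benjamini-Hochberg adjustment over 18193 genes at 0.05, after a check on simulated data. The labels call the samples biological replicates. They name no litter, number of tongues per sample or scan batch, so how far the samples are independent is not known. The p-values set the genotype difference against the spread between these samples. All members are named; array values are given for the largest rise and fall of each role and for Mki67, Top2a, Pcna and Mcm2, and other cell cycle lists by up to 4 passing genes. The members and lists were chosen with earlier results of these data known. Alternatives were quantile normalisation, median centring, the mean of probe sets, a filter on dim genes (6.13), a trended and robust variance, array weights, a replicate block, an unequal-variance test, each array left out, and 3 sets of arrays left out, added after the data were seen. Same-numbered arrays deviated together with correlations of −0.06 to 0.24. For replicates 2, 4 and 6 the same-numbered mutant was the control's closest match. The labels do not say whether the numbers mark pairs, so pairing entered only as the replicate block. Array-to-array correlations were 0.991 to 0.997, and no arrays were duplicates.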

Additional observations from a re-analysis of the deposited data

Results flagged for a closer look

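In 106 groups of 6 arrays tested, the highest or lowest array stood apart from the others in 11, where chance alone gives about 5.3. Mutant 2 was low for 4 mitotic genes: Top2a (12.39, next 12.52), Bub1b (10.15, next 10.33), Kif23 (10.07, next 10.21) and Cenpf (10.19, next 10.44). It was low for the mean of the mitotic members too (−0.10, next 0.05). Without mutant 2 the median over mitotic members was 0.09 in place of 0.06. Control 2 was low for Bub1b (10.0005, next 10.28).

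Control 1 was high for Ttk (9.88, next 9.64), Nusap1 (11.47, next 11.21) and Mcm3 (12.20, next 12.06). Mutant 6 was high for Ccne1 (11.40, next 11.20) and E2f1 (9.16, next 8.84). The cause of these values was not tested.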

How the results depend on the processing

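Of 1281 comparisons of a result with its value under an alternative, 1217 were labelled the same. For a gene's difference this meant the same direction and side of the threshold. For a count it meant an equal value or one within 1.5-fold. The number of arrays limits how narrow the members' intervals are, and their limits differ from gene to gene.

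All-gene counts, 2020 in the main setting, were 836 without control 3, mutant 4 and mutant 6 and 875 without mutants 1 and 2, with fewer samples, and 1398 to 2103 with 1 array left out. The count of members that passed as lower was 2 with the mean of all probe sets. With 1 array left out, the counts that passed as lower and as higher were each 0 to 1. S phase minus mitosis stayed between −0.02 and −0.01. Its value was −0.01 with the replicate block, under which 1932 genes and 0 members passed; of the members and the other cell cycle genes named, the block changed no call.

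Some differences changed sign, none of them past the threshold. With the mean of probe sets these were Bub1 (−0.061), Cenpe (−0.0083, against 0.16), Gins1 (−0.027), Gins2 (−0.0016), Cdt1 (−0.025) and E2f1 (−0.0081), and with quantile normalisation Gins2 (−0.0010). Without control 3, mutant 4 and mutant 6 they were Cdc20 (−0.024), Mcm7 (−0.0085), Tyms (−0.011) and Cdt1 (−0.014). Gins2 gave −0.020 without control 6 and mutant 6, and Tyms −0.0096 and Cdc6 0.0071 without mutants 1 and 2. With 1 array left out the ranges were −0.029 to 0.042 for Ccnb2, −0.0100 to 0.044 for Cdt1, −0.0079 to 0.076 for Chek1, −0.0064 to 0.12 for E2f1, −0.0048 to 0.091 for Fen1, −0.027 to 0.058 for Gins2, −0.070 to 0.026 for Kif11, −0.011 to 0.039 for Pcna, −0.048 to 0.019 for Ttk and −0.051 to 0.072 for Tyms. The cause was not tested.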
